A study of Solanum tuberosum with 11 samples.

Results

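The comparison described here sets the condition that the authors' deposited table calls NG 5-Days against the condition it calls NG 1-Day. It covers every transcript listed for this pair of conditions except 3 that the table marks HIDATA. These 3 are listed at 0 in NG 1-Day and at 41.1 to 1509 in NG 5-Days. Dropping them leaves 35088 of 35091 transcripts, 1 per gene, on 12 chromosomes. The RNA came from dormant minitubers of potato (Solanum tuberosum, cultivar Atlantic), grown in a greenhouse, as discs of the skin (periderm) that held the bud at the apical end. Per the labels, the tubers of every NG library had received 10 µg of NG, a substituted nitroguanidine, by injection in 5 µl of the solvent dimethyl sulfoxide (DMSO), whatever the day. The control tubers received DMSO alone and are labelled as zero time. The sample labels name 2 NG libraries at day 4, 3 at day 1, 3 at day 7 and 3 of the control. No label names a day 5, so NG 5-Days keeps the table's name and is not equated with the day 4 libraries. Which libraries stand behind each condition of the table is not stated. No DMSO library of a later day is labelled, so the time since injection and the course of the NG response cannot be told apart.

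A potato tuber is dormant for a time after harvest, and its buds do not grow during that time even where conditions would allow it. The bud meristem then resumes cell division and a sprout forms, while the storage tissue beneath turns from a sink for starch and protein into their source. Certain nitroguanidines have been studied as synthetic cytokinins, the hormone class that promotes cell division in plants and is linked to the end of tuber dormancy. The identifiers come without gene names. None of them matched the reference table of RefSeq genes, so no transcript can be given a function here, and the marker genes of periderm or bud could not be checked.

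The table holds 1 level per transcript and condition, already combined over libraries by the authors, and a test between each pair of conditions. Its levels are on a scale that the header does not name. The change used here is log2((NG 5-Days level + 1)/(NG 1-Day level + 1)), which understates the change of transcripts at low levels. A transcript is said to have risen or fallen where the authors' deposited test between these 2 conditions gave an adjusted p under 0.05. Errors are standard errors on the log2 scale, recovered as the ratio of the deposited log2 fold change to the deposited test statistic. They are errors of the authors' model and not a spread between libraries, since no library has a value of its own. Sequencing depth per library is unknown.

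About 1 transcript in 5 of those tested differed between NG 5-Days and NG 1-Day, with more rises than falls. By the authors' deposited table, 3950 transcripts were called among 19705 tested (20%). Of the tested transcripts 2589 rose (13.1%) and 1361 fell (6.91%). These shares are the background against which every class below is read. In a bulk sample, fewer cells of one type and less RNA per cell cannot be told apart. The rises were larger than the falls. Among those above 0 in both conditions, the median rise was 3.47-fold (interquartile range 1.12 to 2.86 on the log2 scale) and the median fall 2.27-fold (0.84 to 1.75). The median standard error was 0.33 for the rises and 0.24 for the falls, and its part in the difference of size was not tested. On the level + 1 scale 60.9% of the rises and 47.8% of the falls reached 2-fold. At least 4-fold were 492 rises and 100 falls, at least 8-fold 131 and 21, and at least 16-fold 33 and 11. By mean level of the 2 conditions, the median change was 0.71 for rises and -0.73 for falls between 0.1 and 1. It was 1.37 and -1.10 between 1 and 10, and 1.15 and -0.91 between 10 and 100. Between 100 and 1000 it was 0.79 and -0.85, and at 1000 and over 0.64 for 1 rise and -0.96 for 11 falls.

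Most transcripts moved little. Over all 35088 the median change was 0, with an interquartile range of -0.09 to 0.14, and 9764 transcripts were listed at 0 in both conditions. Over the tested transcripts the median change was 0.03 and the interquartile range -0.26 to 0.36. Without regard to a test, 1842 transcripts were at least 2-fold higher in NG 5-Days (5.25% of all) and 961 at least 2-fold lower (2.74%). At the median error of tested transcripts, 0.29, a change of 1.80-fold was needed for a call.

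**Figure D1:**
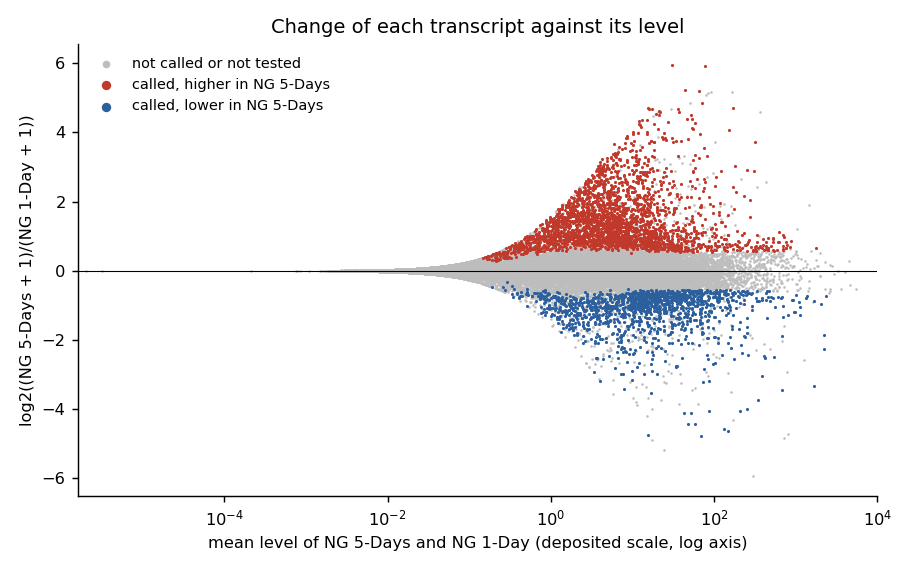
Change of each transcript (vertical axis, log2 of NG 5-Days over NG 1-Day with 1 added to each level) against the mean of its levels in the 2 conditions (horizontal axis, log scale). Red points rose (2589) and blue points fell (1361) in the deposited test, grey points were not called or not tested; red points dominate at mean levels of 1 to 10, and blue points reach the highest levels.

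The direction of the calls turned with the level of the transcript. Levels of different transcripts are set side by side here on the deposited scale, and whether it corrects for transcript length is not stated. Of 3143 tested transcripts with a mean level of 0.1 to 1 in the 2 conditions, 277 rose and 64 fell, so that 81.2% of the calls were rises. Between 1 and 10, where most tests lay, 1433 rose and 453 fell among 8332 tested (76.0% rises). Between 10 and 100 the directions were nearly even, with 762 rises and 694 falls among 7245 tested. Falls were in the majority above that. Between 100 and 1000 there were 116 rises and 139 falls among 928 tested, and at 1000 and over 1 rise and 11 falls among 57 tested.

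The share of tested transcripts called was 10.8% between 0.1 and 1, 22.6% between 1 and 10, 20.1% between 10 and 100, 27.5% between 100 and 1000 and 21.1% at 1000 and over, against 20% over all. The median error fell over the same classes, being 0.69 in the lowest and 0.19 between 100 and 1000, and its part in the difference was not tested. The median change was small in every class below 1000. It was 0.06 between 0.1 and 1, 0.08 between 1 and 10, -0.02 between 10 and 100, -0.02 between 100 and 1000, and -0.20 at 1000 and over.

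**Figure D2:**
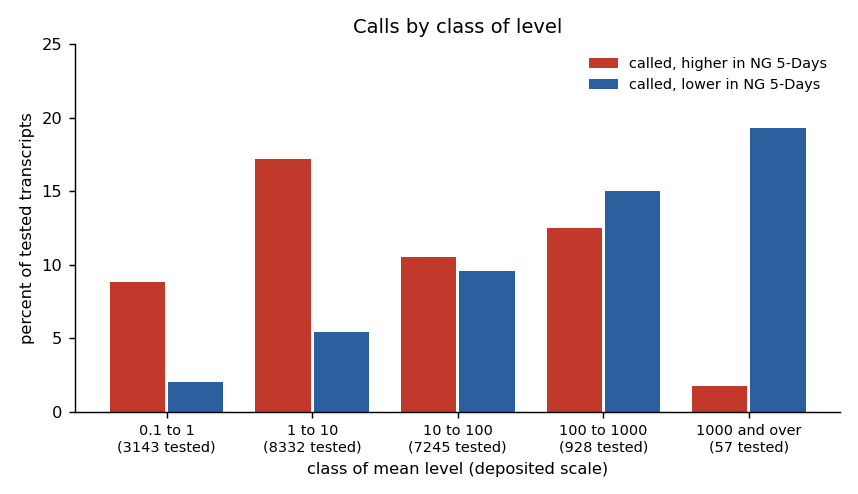
Percent of tested transcripts that rose (red) and fell (blue) in NG 5-Days against NG 1-Day, by class of mean level, with the number tested under each class. Rises make up 17.2% of tests at levels of 1 to 10 and 1.75% at 1000 and over, and falls 5.44% and 19.3%.

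The classes above use the same 2 levels as the change itself. With classes taken from the control level, which the comparison does not use, rises were 87.3% of calls between 0.1 and 1, 78.8% between 1 and 10, 44.0% between 10 and 100, 38.04% between 100 and 1000 and 5.88% at 1000 and over. With classes from the NG 7-Days level they were 62.5%, 75.4%, 56.7%, 52.2% and 22.2%. The median change between 100 and 1000 was -0.07 with classes from the control level and 0.02 with classes from the NG 7-Days level, so its sign depends on how the classes are set. The order of the shares of rises from low to high levels held from 1 upward under each way of setting the classes, but the lowest class had a smaller share of rises than the next under the NG 7-Days level.

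The balance of rises and falls depends on how the 2 conditions are scaled to each other. The median of the tested log2 ratios was 0.04, and centring on it left 62.4% rises. The median level of tested transcripts, in contrast, was greater by 0.20 on the log2 scale for NG 5-Days. Relative to that shift, 2041 transcripts rose and 2211 fell, which makes 48.0% of calls rises, against 65.5% as deposited. The dependence on level remained: rises were then 68.6% of calls between 0.1 and 1, 63.9% between 1 and 10, 31.9% between 10 and 100, 21.6% between 100 and 1000, and 0 of 15 at 1000 and over.

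The summed level lost by all transcripts that fell was larger than that gained by all that rose. The 1361 transcripts that fell had a summed level of 48857 in NG 5-Days, against 110294 in NG 1-Day, which is 7.85% and 16.9% of all levels in these conditions. The 2589 that rose summed to 86513 in NG 5-Days, against 39128 in NG 1-Day, or 13.9% and 6.01%. The 10 transcripts with the greatest loss made up 24.8% of the summed loss of 61437. The 10 with the greatest gain made up 10.4% of the summed gain of 47385. More of the loss than of the gain thus lay with a few transcripts, but 10 is a larger part of 1361 than of 2589. At a mean level of 1000 and over there were also 11 falls and 1 rise. The part of each in the difference was not tested.

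The 60 transcripts with a mean level of 1000 and over summed to 101118 in NG 5-Days, against 122944 in NG 1-Day. The 8714 transcripts between 1 and 10 summed to 40860 in NG 5-Days, against 35776 in NG 1-Day.

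The size of the locus went with both the frequency and the direction of calls. The span used here is the distance from start to end in the deposited table, introns included. Of tested transcripts under 1 kb, 18.1% were called, of those between 1 and 2 kb 25.1%, between 2 and 5 kb 23.0%, between 5 and 10 kb 14.8% and at 10 kb and over 8.36%. Rises were 44.0% of the calls under 1 kb and their share grew with each class, to 59.0%, 67.9%, 76.9% and 80.6%. As a share of tests, however, rises were 7.97%, 14.8%, 15.6%, 11.4% and 6.74% from the shortest to the longest class. Falls were 10.1%, 10.3%, 7.38%, 3.43% and 1.62% of tests. Transcripts that rose had a median span of 3.37 kb, and those that fell one of 2.39 kb, against 3.48 kb for all tested transcripts. Relative to the shift of 0.20 the shares of rises among calls, from the shortest to the longest class, were 34.2%, 46.7%, 49.5%, 52.9% and 51.4%.

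Longer loci also had higher levels on the deposited scale, which may not correct for transcript length. The median mean level was 2.71 among tested transcripts under 1 kb and 11.8 at 10 kb and over. The span classes were therefore repeated within classes of level. Between 10 and 100, calls were 32.8% of 539 tests under 1 kb and 12.0% of 2919 tests between 5 and 10 kb. Between 100 and 1000, they were 54.3% of 81 tests under 1 kb and 11.9% of 202 tests between 5 and 10 kb. At lower levels the order differed. Between 1 and 10, calls were 19.1% of 1045 tests under 1 kb, 26.8% of 1507 tests between 1 and 2 kb and 19.05% of 2278 tests between 5 and 10 kb. Between 0.1 and 1, they were 1.77% of 736 tests under 1 kb and 13.3% of 460 tests between 5 and 10 kb. The direction followed the span in the lower classes: between 1 and 10, rises were 47.0% of 200 calls under 1 kb and 87.3% of 434 calls between 5 and 10 kb, and between 10 and 100, 36.2% of 177 and 66.6% of 350.

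Between 100 and 1000 the share of rises did not grow with span. Rises were 24 of 44 calls under 1 kb, 21 of 48 between 1 and 2 kb, 68 of 139 between 2 and 5 kb and 3 of 24 between 5 and 10 kb. The last class holds few calls.

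**Figure D3:**
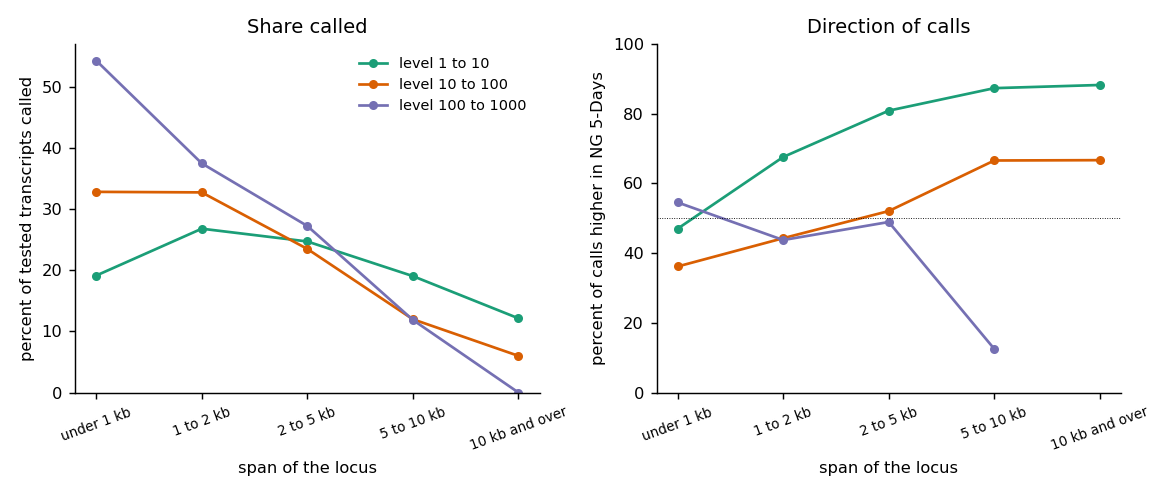
Left, percent of tested transcripts called in NG 5-Days against NG 1-Day by span of the locus, for transcripts with mean levels of 1 to 10 (green), 10 to 100 (orange) and 100 to 1000 (purple). Right, percent of those calls that are rises (classes with fewer than 10 calls left out), with a dotted line at even shares; it climbs with span in the green and orange classes, and drops to 12.5% at 5 to 10 kb in the purple one.

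The greatest rises led to levels above those of the control. They were picked for the difference of NG 5-Days from NG 1-Day, which favours extreme levels in these 2 conditions. By the authors' deposited table PGSC0003DMG400031534, on chromosome 9 at 51758905 to 51759775, was at 153 in NG 5-Days, against 1.58 in NG 1-Day. Its level was 126 in the control and 192 in NG 7-Days, so NG 1-Day stands alone as the low value. The rise was 97.4-fold (log2 fold change 6.61, standard error 0.47, adjusted p listed as 0). By the authors' deposited table PGSC0003DMG400026274, on chromosome 8 at 3259602 to 3260545, was at 86.7 in NG 5-Days, against 1.35 in NG 1-Day. It was at 23.0 in the control and 44.8 in NG 7-Days, so NG 5-Days was the highest of the 4 conditions. The rise was 64.3-fold (standard error 0.45, adjusted p listed as 0).

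A transcript of 3.57 kb on chromosome 1, at 59358555 to 59362126, came next, with 128 in NG 5-Days against 2.49 in NG 1-Day. The authors' deposited table gives 31.8 for the control and 70.9 for NG 7-Days.

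Among transcripts with a mean level of 100 to 1000 the 3 greatest rises were 28.2-fold, 17.7-fold and 13.4-fold, each with an adjusted p listed as 0 in the authors' deposited table. The first, on chromosome 5 at 44728116 to 44729737, was at 327 in NG 5-Days against 11.6 in NG 1-Day, with 136 in the control and 241 in NG 7-Days. The second, on chromosome 3 at 41635256 to 41637138, was at 286 in NG 5-Days against 16.2 in NG 1-Day, with 66.3 in the control and 137 in NG 7-Days. Its locus overlaps another listed one, so reads may have been split between them. The third, on chromosome 4 at 5326776 to 5327333, was at 589 in NG 5-Days against 44.1 in NG 1-Day, with 158 in the control and 308 in NG 7-Days. In all 3, NG 1-Day was the lowest of the 4 conditions and NG 5-Days the highest.

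Between 1 and 10 the 3 greatest rises showed the same order of conditions. On chromosome 7 at 37975954 to 37976809 the level was 19.7 in NG 5-Days against 0.283 in NG 1-Day. On chromosome 2 at 19343112 to 19344162 it was 16.7 in NG 5-Days against 0.181 in NG 1-Day. On chromosome 3 at 5688412 to 5692509 it was 16.9 in NG 5-Days against 0.239 in NG 1-Day. In the control these 3 were at 5.14, 4.97 and 4.90, and in NG 7-Days at 11.4, 7.94 and 8.99. At 1000 and over the single rise lay on chromosome 7 at 2123427 to 2123689, with 2157 in NG 5-Days against 1379 in NG 1-Day (1.56-fold, standard error 0.21, adjusted p = 0.0371 in the authors' deposited table). A threshold of 0.01 ended this call. Centring the ratios on their median ended it too, with an adjusted p of 0.0607 by Benjamini-Hochberg over all comparisons.

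The greatest falls left levels below those of the control. They too were picked for the difference of these conditions, which favours such an order. By the authors' deposited table PGSC0003DMG400009255, on chromosome 11 at 12252235 to 12253052, was at 3.93 in NG 5-Days, against 135 in NG 1-Day. It was at 103 in the control and 21.7 in NG 7-Days. The fall was 34.4-fold (log2 fold change -5.10, standard error 0.29, adjusted p listed as 0). For PGSC0003DMG400014234, on chromosome 3 at 43352737 to 43353841, the authors' deposited table gives 0.181 in NG 5-Days, against 30.7 in NG 1-Day. It was at 26.9 in the control and 5.36 in NG 7-Days. Its deposited log2 fold change was -7.41 (standard error 0.77, adjusted p listed as 0), and its change on the level + 1 scale -4.75. In both, NG 1-Day was the highest and NG 5-Days the lowest of the 4 conditions. The next, on chromosome 1 at 80055735 to 80056866, was at 3.29 in NG 5-Days against 92.4 in NG 1-Day, with 104 in the control and 31.4 in NG 7-Days.

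Falls of abundant transcripts were deep as well. At 1000 and over, a transcript of 0.833 kb on chromosome 3, at 20367569 to 20368402, fell to 302 in NG 5-Days, against 3064 in NG 1-Day. It was at 1662 in the control and 716 in NG 7-Days. The authors' deposited table makes this a 10.1-fold fall (standard error 0.28, adjusted p listed as 0). The other two of the greatest falls in this class lie near each other on chromosome 8. The one at 1435830 to 1439140 fell to 754 in NG 5-Days, against 3621 in NG 1-Day (4.81-fold, standard error 0.32, adjusted p = 1.21e-10 in the authors' deposited table). The one at 1473269 to 1474875 fell to 951 in NG 5-Days, against 3472 in NG 1-Day (3.65-fold, standard error 0.31, adjusted p = 2.46e-07 in the authors' deposited table). In the control they were at 2355 and 2562, and in NG 7-Days at 1092 and 1345.

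By the authors' deposited table, the 3 greatest falls between 100 and 1000 were 27.3-fold, 25.9-fold and 17.3-fold, each with an adjusted p listed as 0. On chromosome 9 at 46500799 to 46502461 the level was 10.3 in NG 5-Days against 281 in NG 1-Day, with 202 in the control and 81.0 in NG 7-Days. On chromosome 3 at 16332045 to 16332897 it was 9.86 in NG 5-Days against 256 in NG 1-Day, with 199.7 in the control and 95.8 in NG 7-Days. On chromosome 6 at 52403750 to 52404584 it was 22.4 in NG 5-Days against 386 in NG 1-Day, with 380.4 in the control and 88.5 in NG 7-Days. Each of the 3 spans under 2 kb and was lowest in NG 5-Days.

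Between 1 and 10 the greatest falls were less alike. On chromosome 10 at 43787803 to 43788901 the level was 0.531 in NG 5-Days against 15.3 in NG 1-Day, with 24.3 in the control and 39.1 in NG 7-Days, the highest of the 4. On chromosome 1 at 70300890 to 70304317 it was 1.16 in NG 5-Days against 18.5 in NG 1-Day, with 14.9 in the control and 4.03 in NG 7-Days. On chromosome 8 at 3481193 to 3483932 it was 0.831 in NG 5-Days against 13.6 in NG 1-Day, with 1.92 in the control and 2.13 in NG 7-Days, so that NG 1-Day stands alone as the high value. The last had a standard error of 1.19 and an adjusted p of 0.0155 in the authors' deposited table, its locus overlaps another, and a threshold of 0.01 ended the call.

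**Figure D4:**
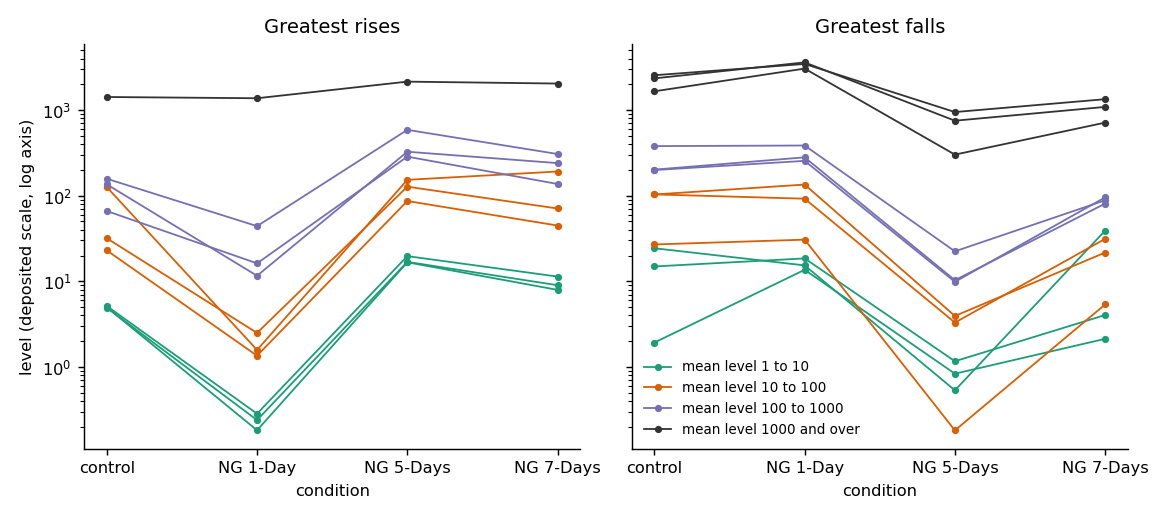
Levels in the control and in NG 1-Day, NG 5-Days and NG 7-Days (log axis) of the greatest rises (left) and falls (right) in NG 5-Days against NG 1-Day, up to 3 in each class of mean level, each line 1 transcript and each point the authors' combined level with no replicate error. The transcripts were chosen for this difference; NG 1-Day is the lowest of the 4 conditions in every rise drawn, and NG 5-Days in every fall drawn.

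The transcripts that rose had a median level of 4.19 for the control, 2.25 for NG 1-Day, 8.95 for NG 5-Days and 6.69 for NG 7-Days. Those that fell had a median of 17.7 for the control, 20.7 for NG 1-Day, 9.13 for NG 5-Days and 12.9 for NG 7-Days. Among rises between 100 and 1000 the medians were 178, 143, 311 and 256 in the same order of conditions, and among falls 204, 254, 108 and 145. The sets were chosen on 2 of these 4 levels, so the order of those 2 is no finding. That choice also favours those 2 as the extremes, with the control and NG 7-Days between them. The comparisons of NG 5-Days and of NG 1-Day with the control share that control and their own levels with this one, and no share between them is given.

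Calls were spread over all 12 chromosomes in similar shares. The share of tested transcripts called was lowest on chromosome 9, with 18.6% of 1458, and highest on chromosome 2, with 21.8% of 1951, against 20% over all. Rises were between 63.3% of calls on chromosome 3 and 68.9% on chromosome 5. On chromosome 3 the summed level of all listed transcripts was 52786 in NG 5-Days, against 63541 in NG 1-Day. Much of this difference lay with few transcripts. Those 4 within 159 kb that are described below summed to 227 in NG 5-Days, against 4432 in NG 1-Day. The transcript at 20367569 to 20368402 was at 302 in NG 5-Days, against 3064 in NG 1-Day. The share called on this chromosome was 20.1%, and the median change of its tested transcripts was -0.006. Chromosomes 6 and 11 had higher sums in NG 5-Days, 73320 against 71000.1 and 40442 against 36901 in NG 1-Day.

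Along a chromosome the share called was lowest before the middle, in coordinate order. Each chromosome was divided into 10 equal parts from its first to its last listed transcript. The share called was 19.96% in part 1, 18.0% in part 2, 15.9% in part 3, 15.0% in part 4 and 16.0% in part 5. It was 17.2% in part 6, 20.2% in part 7, 19.8% in part 8, 22.1% in part 9 and 21.6% in part 10. The middle parts also held fewer tested transcripts, 595 in part 4 and 3783 in part 9. The share called went with the number of listed transcripts within 500 kb in the same way. The tested transcripts were divided into 5 nearly equal classes by this number. Where it was lowest, 8 to 54, the share was 16.44%, and where it was highest, 107 to 186, it was 22.1%. Rises and falls shared this pattern, with rises at 67.5% of calls in the sparsest class and 64.8% in the densest. The median level was lower in the sparsest class, 5.65 against 8.19 in the densest, and the median error larger, 0.31 against 0.27, and their part in the difference was not tested.

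**Figure D5:**
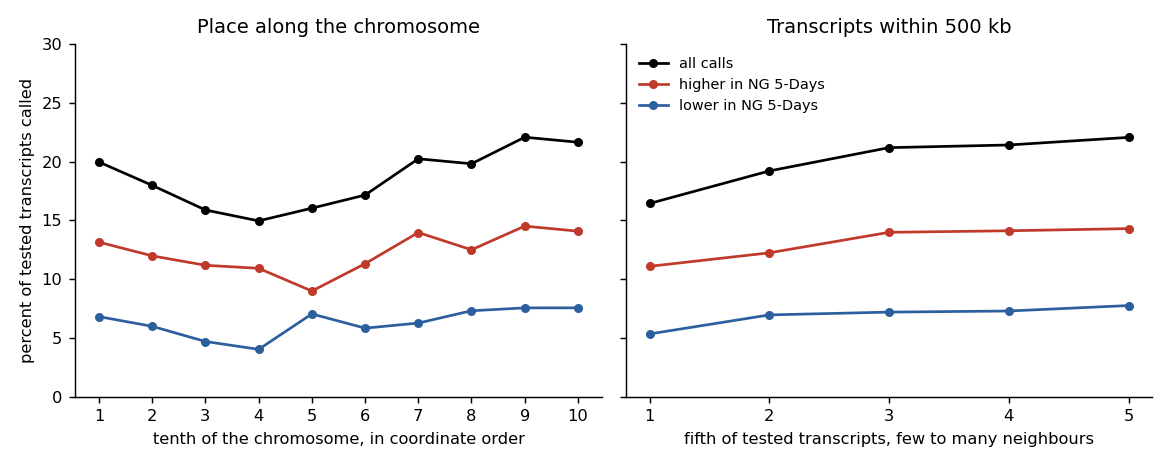
Percent of tested transcripts called in NG 5-Days against NG 1-Day (black), and those that rose (red) and fell (blue), by position in 10 equal parts of the chromosome (left) and in 5 classes by the number of listed transcripts within 500 kb (right). All calls range from 15.0% to 22.1% on the left and from 16.44% to 22.1% on the right.

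Transcripts whose loci overlap another listed locus were called less often. Of 1852 such tested transcripts 9.94% were called, and of 17853 others 21.1%. Their median error was 0.38, against 0.28 for the others. Their loci were also longer, with a median of 6508 bases against 3203, and their median level was lower, 4.82 against 7.33. The median size of their change, in either direction, was 0.27 against 0.31 on the log2 scale. The part of each in the difference was not tested. The share of rises was 63.0% among the calls with overlap and 65.7% among the others.

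Neighbouring transcripts were described by the direction and distance of their calls. Among 18897 pairs of tested transcripts that follow each other without overlap, both rose in 441, both fell in 199 and the directions were opposite in 326. Where both of a pair were called, the share with the same direction was 68.4% of 174 pairs less than 2 kb apart, 76.7% of 193 pairs 2 to 5 kb apart and 64.2% of 165 pairs 5 to 10 kb apart. It was 61.7% of 350 pairs 10 to 50 kb apart and 60.7% of 84 pairs farther apart. Among all pairs of called transcripts that lie on different chromosomes the share was 54.8%, which the pairs at least 50 kb apart came nearest to. Whether these shares differ was not tested.

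In windows of 1 Mb with at least 20 tested transcripts, of which there were 325, the share called had a median of 20.3% and an interquartile range of 16.13% to 25%. The lowest was 3.33%, 1 call among 30 tests on chromosome 8 between 30 and 31 Mb. The highest was 40.9%, 9 calls among 22 tests on chromosome 11 between 42 and 43 Mb, of which 6 were falls. These 6 all lie at 42016326 to 42084630, and whether they are similar copies that share reads is not known. Both shares are the extremes of 325 windows and rest on few tests, and whether they differ from the background was not tested. At least 1 rise was found in 321 of the windows and at least 1 fall in 297.

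The window with the greatest share of rises lay on chromosome 6 between 51 and 52 Mb, with 7 of 23 tested transcripts (30.4%, against 13.1% over all). Of these 7, 5 lie within 84.2 kb, at 51889642 to 51973807, and span 530 to 691 bases each. In the authors' deposited table these 5 were at 182 to 288 in NG 5-Days, against 27.2 to 77.7 in NG 1-Day. They were at 59.996 to 104 in the control and 107 to 188 in NG 7-Days. Their summed level was 436 for the control, 278 for NG 1-Day, 1072 for NG 5-Days and 731 for NG 7-Days. Each rose by 2.49-fold to 6.71-fold, with standard errors of 0.19 to 0.25. Of the other 14 transcripts listed in this stretch, 13 were not tested and were listed at 0 in NG 1-Day and at no more than 0.228 in NG 5-Days, and 1 was at 83.3 in NG 5-Days against 85.4 in NG 1-Day. Whether these 5 are similar copies that share reads is not known without names or sequences, and they were picked out after their values were seen.

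The other two windows richest in rises lay on chromosome 9 between 36 and 37 Mb, with 6 rises and no fall among 20 tests, and on chromosome 5 between 39 and 40 Mb, with 8 rises among 29. Apart from that chromosome 11 window, those richest in falls were on chromosome 7 between 3 and 4 Mb, with 11 of 48 tests (22.9%, against 6.91% over all), and on chromosome 5 between 13 and 14 Mb, with 5 of 22. In the chromosome 7 window the 11 summed to 330.0 in NG 5-Days, against 742 in NG 1-Day. In the chromosome 5 window the 5 summed to 121 in NG 5-Days, against 295 in NG 1-Day, and the transcript at 13117468 to 13119580 held most of it, with 97.5 in NG 5-Days against 238 in NG 1-Day.

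On chromosome 3, within 159 kb at 16174064 to 16332897, 4 short transcripts with levels over 100 in NG 1-Day were all far lower in NG 5-Days. They were picked out after their values were seen. Of these, 2 were tested by the authors' deposited table, and both fell. The transcript at 16201969 to 16202530 was at 111 in NG 5-Days against 1226 in NG 1-Day (11.0-fold, standard error 0.20), and that at 16332045 to 16332897 is the 25.9-fold fall given above. The other 2 carry no call because the authors' deposited table marks them as not tested, although its test lists a p of 0 for both. Their levels were 47.9 in NG 5-Days against 1387 in NG 1-Day at 16174064 to 16174890, and 58.4 in NG 5-Days against 1563 in NG 1-Day at 16206009 to 16206797. The summed level of the 4 was 3518 for the control, 4432 for NG 1-Day, 227 for NG 5-Days and 1755 for NG 7-Days. Of the 16 transcripts listed in or near this stretch 5 were at 0 in NG 5-Days and NG 1-Day. Inside the stretch, the transcript at 16217257 to 16218031 was lower too, with 0.336 in NG 5-Days against 6.92 in NG 1-Day. It was not tested, and nor was that at 16306697 to 16307490, at 0 in NG 5-Days and 0.259 in NG 1-Day. Outside the stretch, the transcript at 16131970 to 16138723 was at 35.1 in NG 5-Days against 39.5 in NG 1-Day. Another of the 16, at 16391599 to 16393428 and also outside, rose. It was at 2.36 in NG 5-Days against 0.137 in NG 1-Day (17.2-fold, standard error 0.80, adjusted p = 1.97e-05 in the authors' deposited table).

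Transcripts marked as not tested were not all at low levels. Of 35088 transcripts 15383 (43.8%) do not count as tested in this comparison, among them 80 of the 1065 with a mean level of at least 100. The rule behind this mark is not stated. Such lines still hold a p-value of the authors' deposited test. For 21 of the 80 that were higher in NG 5-Days and 37 that were lower, it was at most 0.00296, the largest p among the calls. Of the 80, 17 were at least 2-fold higher and 29 at least 2-fold lower in NG 5-Days. Among all 1005 transcripts listed between 100 and 1000, tested or not, 49 were at least 2-fold higher and 82 at least 2-fold lower. Among all 60 listed at 1000 and over, these counts were 2 and 6. Their median span was 1.66 kb, against 3.07 kb for the tested ones at these levels. The lowest change among them was on chromosome 9 at 47542989 to 47543392, with 8.66 in NG 5-Days against 585 in NG 1-Day, 85.4 in the control and 48.8 in NG 7-Days. The highest was on chromosome 11 at 41823412 to 41823995, with 325 in NG 5-Days against 8.01 in NG 1-Day, 77.6 in the control and 166 in NG 7-Days.

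Some transcripts were listed at 0 in 1 of the 2 conditions. At 0 in NG 5-Days and above 0 in NG 1-Day were 952 transcripts, of which 38 were tested and 4 fell. At 0 in NG 1-Day and above 0 in NG 5-Days were 878, of which 85 were tested and 31 rose. Over all tested transcripts 6.91% fell and 13.1% rose, but a transcript listed at 0 in 1 condition can differ in 1 direction only. Most of them were at very low levels: the median level in the other condition was 0.039 for the 952 and 0.049 for the 878. A level of at least 1 in the other condition was reached by 11 of the 952 and by 22 of the 878. Of these 22, 21 were above 0 in the control and 19 in NG 7-Days. The highest, on chromosome 7 at 52150653 to 52158077, was at 61.3 in NG 5-Days and listed at 0 in NG 1-Day, with 10.8 in the control and 28.7 in NG 7-Days. Its adjusted p was 4.93e-19 in the authors' deposited table. The locus overlaps another, and no fold is given because an exact 0 in such a table can be a failed estimate.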

How the data were processed

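RNA was sequenced from 11 labelled libraries, per the labels' protocols with standard Illumina preparation. The sources used here do not state an aligner, a genome build or filters. Coordinates are printed as deposited. Per the file headers, the deposited table has the layout of a Cuffdiff table, with the authors' combined level of each transcript in 2 conditions, a log2 fold change, a statistic, the authors' deposited p-value and adjusted p-value, and a call, for 6 comparisons. Depth is unknown.

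From it were computed the change with a pseudocount of 1, standard errors from fold change and statistic (19582 tested transcripts), and counts by level, span and position, with Python 3.11.15, pandas 2.3.3 and scipy 1.17.1. Benjamini-Hochberg adjustment over the 118862 tested lines of all comparisons gave the deposited adjusted p-values to within 3.32e-06. Alternatives recomputed calls from shifted fold changes and these errors. The calculation was checked on simulated data drawn from these same errors, which cannot show whether the errors or the shifts are right. None of the identifiers matched the 32873 reference genes (0 matched). Named transcripts are the greatest rises and falls among calls with levels above 0 in both conditions and at least 5 in the higher: 2 each by identifier, and 3 each per level class from 1 upward by position. The comparison, classes and rules were chosen with earlier results of these data known. Whether libraries came from separate tubers is not stated.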

Additional observations from a re-analysis of the deposited data

How the results depend on the processing

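No paired analysis was possible because the deposited table holds 1 combined value per condition, so neither a replicate block nor leaving out a library could be tried. The number of calls stayed within 1.5 times 3950 except where calls also had to reach 2-fold on the level + 1 scale (2228: 1577 rises, 651 falls). The share of rises, 65.5%, was 63.3% adjusted over this comparison alone, 67.9% at an adjusted p under 0.01, 62.7% with lines marked as not tested included, 62.4%, 70.5% and 60.5% with ratios centred on their median, on summed levels and on upper quartiles, and 70.8% at 2-fold or more. Centred on the ratio of median levels, chosen after the data were seen, it was 48.0%, with 2211 falls. Transcripts at least 2-fold higher and lower numbered 3240 and 1918 with a pseudocount of 0.1, and 815 and 475 with 5. The median change, 0, was -0.040 after centring on the median ratio, 0.025 for levels of at least 1 and 0.032 for tested transcripts. For mean levels of 0.1 to 1, classes from the control level gave 14.9% called, 87.3% rises and a median change of 0.088, and classes from the NG 7-Days level 62.5% rises and 0.013. With levels of at least 1 in the higher condition, the share called was 22.4% over all. It was then 21.4% on chromosome 9, 24.2% on chromosome 2, 24.3% under 1 kb and 30.2% between 1 and 2 kb. Among the 22 named transcripts, 3 calls of 2 transcripts were lost, as given above, at a threshold of 0.01 or after centring on the median ratio. Adjustment over this comparison alone ended none of their calls. The pseudocounts of 0.1 and 5, also among the 110 recomputed values, kept the deposited adjusted p and so could not end a call. The shift of 0.20 was not applied to the named transcripts singly. Low levels limit this comparison: under a mean level of 0.1 no transcript was tested.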
